A study of Mus musculus with 8 samples.

Results

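The genes described here are 10 that build the calcium release unit and the transverse tubules (T-tubules) of the heart muscle cell: Ryr2, Casq2, Trdn, Hrc, Atp2a2, Pln, Asph, Jph2, Bin1 and Cav3. They were chosen by name, as the rows of a table of 54752 Ensembl gene IDs that map to these symbols in GENCODE M21, and the rule itself uses no measured value. The choice of the members was, however, made with earlier results of these data known. All 10 were matched. A filter on low counts was passed by 9, and Pln was listed at 0 in all 8 libraries.

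In a heart muscle cell the T-tubule carries the action potential inward and lies close to the sarcoplasmic reticulum (SR), the internal calcium store. At this contact, the dyad, calcium entering through L-type channels opens the ryanodine receptor, and the calcium released from the SR starts contraction. The SR pump then takes the calcium back up. In rodents the T-tubules and dyads form largely after birth.

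The libraries hold messenger RNA from cardiomyocytes that were freed from the hearts of Carm1fl/fl mice by Langendorff perfusion. Carm1 is an arginine methyltransferase. The 4 groups, of 2 libraries each, were 3w KO, 3w control, 1w KO and 1w control. KO mice had received AAV9 with Cre recombinase, which cuts out the floxed stretch of Carm1, and control mice AAV9 with GFP. Both arms are listed as injected on postnatal day 3 or 4 in the 3w groups and on day 1 or 2 in the 1w groups. KO and control have the same pair of days. The listed days rise in step with replicate number and age in both arms. Within an age, day of injection and replicate number therefore cannot be told apart. The hearts were mosaic, with infected and uninfected cells together, and no sort of infected cells is described. The promoter that drives Cre is not given in the sources used here, and there was no group with Cre and unfloxed Carm1, so that Cre and loss of Carm1 cannot be told apart. The labels do not say outright that each library is another animal. The p-values therefore measure only how far these libraries differ, and that may be technical.

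Carm1 stood at 17.3 and 17.8 CPM (counts normalised to library size) in 3w KO against 39.8 and 39.2 CPM in 3w control, and at 22.2 and 22.4 CPM in 1w KO against 40.5 and 39.0 CPM in 1w control. Total gene counts lay between 20818285 and 53671626 per library, of which 40.7 to 47.8% were mitochondrial. Summed counts of Y-linked genes were 3 and 2 in 3w KO and 6765 and 4814 in 3w control, 5025 and 4282 in 1w KO, and 1 and 0 in 1w control. Within 1 age, loss of Carm1 and whatever goes with Y-linked transcripts cannot be told apart. The same holds for the KO effect at 3w less that at 1w. The comparison over both ages is balanced for them. Of 15 structural genes of heart muscle used to check the cell type, 12 were detected at a summed 44707 to 93216 CPM, and Actc1, Tnnc1 and Myom1 were listed at 0.

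Summed markers of fibroblasts, macrophages, endothelium and smooth muscle were higher in KO at both ages. Summed fibroblast markers (10 of 11 detected, Tcf21 at 0) lay between 829.5 and 842 CPM in 3w KO against 394 to 400.1 CPM in 3w control, and between 2402 and 2429 CPM in 1w KO against 1318 to 1324 CPM in 1w control. The 10 macrophage markers summed to 129 to 133 CPM in 3w KO and 84.3 to 85.9 CPM in 3w control, and to 145 to 153 CPM in 1w KO and 46.1 to 47.2 CPM in 1w control. The 10 fibroblast markers tested were all called higher in KO at both ages, as were 9 macrophage markers at 3w and 10 at 1w. The 10 endothelial markers summed to 430 to 453 CPM in 3w KO and 398 to 399 CPM in 3w control, and to 1248 to 1252 CPM in 1w KO and 1088 to 1092 CPM in 1w control. Of these endothelial markers, 7 were called higher and 2 lower in KO at 3w, and 8 higher and 1 lower at 1w. Over both ages 6 were called higher and 4 not called. The 10 smooth muscle and pericyte markers gave 2130 to 2132 CPM in 3w KO and 1246 to 1287 CPM in 3w control, and 2456 to 2474 CPM in 1w KO and 1912 to 1973 CPM in 1w control. Of these, 9 were called higher and 1 lower in KO at 3w, and 7 higher and 2 lower at 1w. Over both ages 5 were called higher and 5 not called. Acta2 had the most counts of this list over the 8 libraries, 338119, followed by Abcc9 with 88048. Skeletal muscle markers (9 of 10 detected, Acta1 at 0) were lower in sum, at 1616 to 1693 CPM in 3w KO against 2499 to 2555 CPM in 3w control, and at 1032 to 1045 CPM in 1w KO against 1145 to 1171 CPM in 1w control. Of the 4 that were tested, Ckm, the muscle creatine kinase that heart muscle also makes, was lower and Tnnt3, Tnni2 and Mylpf were higher in KO at both ages. The structural genes were lower in summed CPM in KO too, at 73598 to 74541 CPM in 3w KO against 89173 to 93216 CPM in 3w control, and at 44707 to 45104 CPM in 1w KO against 47811 to 48780 CPM in 1w control. Without the TMM factors the gap was smaller. Of total counts they made up 6.83 and 6.74% in 3w KO against 6.97 and 7.08% in 3w control. At 1w these shares overlapped, at 5.56 and 5.51% in KO against 5.47 and 5.63% in control. Of the 12 tested, 9 were called lower and 1 higher in KO at 3w, with the same numbers at 1w. Over both ages 5 were called lower and 0 higher. Of all genes, 24.8% were called lower and 24.4% higher at 3w, 20% and 23% at 1w, and 14.5% and 16.3% over both ages. The part of these shifts in marker levels in the results below was not tested. Each member is therefore also given under another scaling, in which every library is divided by the summed counts of the structural genes (called structural scaling below). Myh6 had the most counts among them over the 8 libraries, 7129774, followed by Tpm1 with 2402249, and so weighs most in that sum. Structural scaling moved the median log2 fold change of all genes by 0.295 for KO against control at 3w, by 0.107 at 1w and by 0.201 over both ages. Fewer heart muscle cells and less of a transcript per cell cannot be told apart in bulk libraries.

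Promoters are shown for 4 members whose KO differences were unlike each other in the results below: the SR proteins Hrc and Casq2, and the T-tubule proteins Jph2 and Cav3. Each run is the 250 bases before the annotated start on the gene's own strand, from RefSeq on GRCm38.p6. The intervals are chr7:45335019-45335268 on the plus strand for Hrc, chr3:102086165-102086414 on the plus strand for Casq2, chr2:163397994-163398243 on the minus strand for the first of 2 listed Jph2 starts, and chr6:112459255-112459504 on the plus strand for Cav3. Capitals mark matches, on either strand, to a GC box (GGGCGG), an E-box (CAGCTG), the site of the oestrogen-related receptors (ERR; AAGGTCA) or the MEF2 site.
Hrc: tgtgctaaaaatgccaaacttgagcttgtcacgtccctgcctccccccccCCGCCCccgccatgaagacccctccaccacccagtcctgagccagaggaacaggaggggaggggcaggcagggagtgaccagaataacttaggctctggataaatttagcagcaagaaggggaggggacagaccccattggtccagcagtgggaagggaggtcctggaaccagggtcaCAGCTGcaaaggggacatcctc
Casq2: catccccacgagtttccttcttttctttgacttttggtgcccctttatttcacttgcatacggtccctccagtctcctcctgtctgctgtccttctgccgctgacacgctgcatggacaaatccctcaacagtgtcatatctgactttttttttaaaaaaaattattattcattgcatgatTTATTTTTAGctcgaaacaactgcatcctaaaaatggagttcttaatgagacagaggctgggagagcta
Jph2: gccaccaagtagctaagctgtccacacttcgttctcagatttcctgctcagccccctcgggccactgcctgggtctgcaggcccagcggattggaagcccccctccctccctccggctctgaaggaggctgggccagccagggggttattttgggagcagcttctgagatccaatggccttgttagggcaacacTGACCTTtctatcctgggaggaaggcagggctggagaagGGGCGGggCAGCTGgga
Cav3: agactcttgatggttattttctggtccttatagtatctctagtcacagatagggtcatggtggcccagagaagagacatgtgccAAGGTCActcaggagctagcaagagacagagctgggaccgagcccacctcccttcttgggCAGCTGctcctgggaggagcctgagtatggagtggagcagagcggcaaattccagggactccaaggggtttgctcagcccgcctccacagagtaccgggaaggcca

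In these runs the Hrc promoter held a GC box that begins 200 bases upstream of the start and an E-box that begins 22 bases upstream. The Casq2 promoter held the MEF2 site, 69 bases upstream. The Jph2 promoter held an ERR site 56 bases upstream, a GC box 17 bases upstream and an E-box 9 bases upstream. In Cav3 an ERR site lay 166 bases upstream and an E-box 106 bases upstream. The Pln promoter, not shown, held a TATA box that begins 219 bases upstream and a GATA motif that begins 183 bases upstream. No promoter entry was found for Trdn, Atp2a2, Asph and Bin1. The Ryr2 promoter held none of the 8 motifs searched. The others were the TATA box, spelled TATAAA, then the GATA motif, spelled AGATAA, then the M-CAT motif of skeletal and heart muscle genes, spelled CATTCCT, and the CArG box by name. Among 32851 mouse promoters of the same length, 32.7% held the GC box, 13% the E-box, 4.08% the ERR site, 2.92% the MEF2 site, 12.4% the TATA box, 9.99% the GATA motif, 4.51% the M-CAT motif and 1.47% the CArG box. A match describes letters in this window and does not show that a factor binds there.

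At 3w, under TMM scaling, 8 of the 9 members tested were lower in KO than in control and Bin1 was higher. Among all 14665 genes tested in that comparison, 49.2% were called, 24.8% lower and 24.4% higher, at an adjusted p under 0.05 in edgeR's quasi-likelihood test. The median log2 fold change was -0.27 over the members and 0.01 over all genes. At 1w, 6 members were lower (20% of all genes), Asph and Bin1 were higher (23% of all genes) and Jph2 was not called, where 43% of all genes were called in either direction. The members' median at 1w was -0.22, against 0.02 over all genes. Over both ages, with additive terms for age and KO, 6 were lower (14.5% of all genes), Bin1 was higher (16.3% of all genes), and Asph and Jph2 were not called, where 30.7% of all genes were called in either direction. Under structural scaling 5 members were called at 3w instead of 9, where 59.4% of all genes were called, and 4 over both ages instead of 7, where 37.3% were. Hrc, Trdn and Bin1 kept both direction and call in every comparison of KO with control, under all 16 or 17 alternatives run for each.

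**Figure D1:**
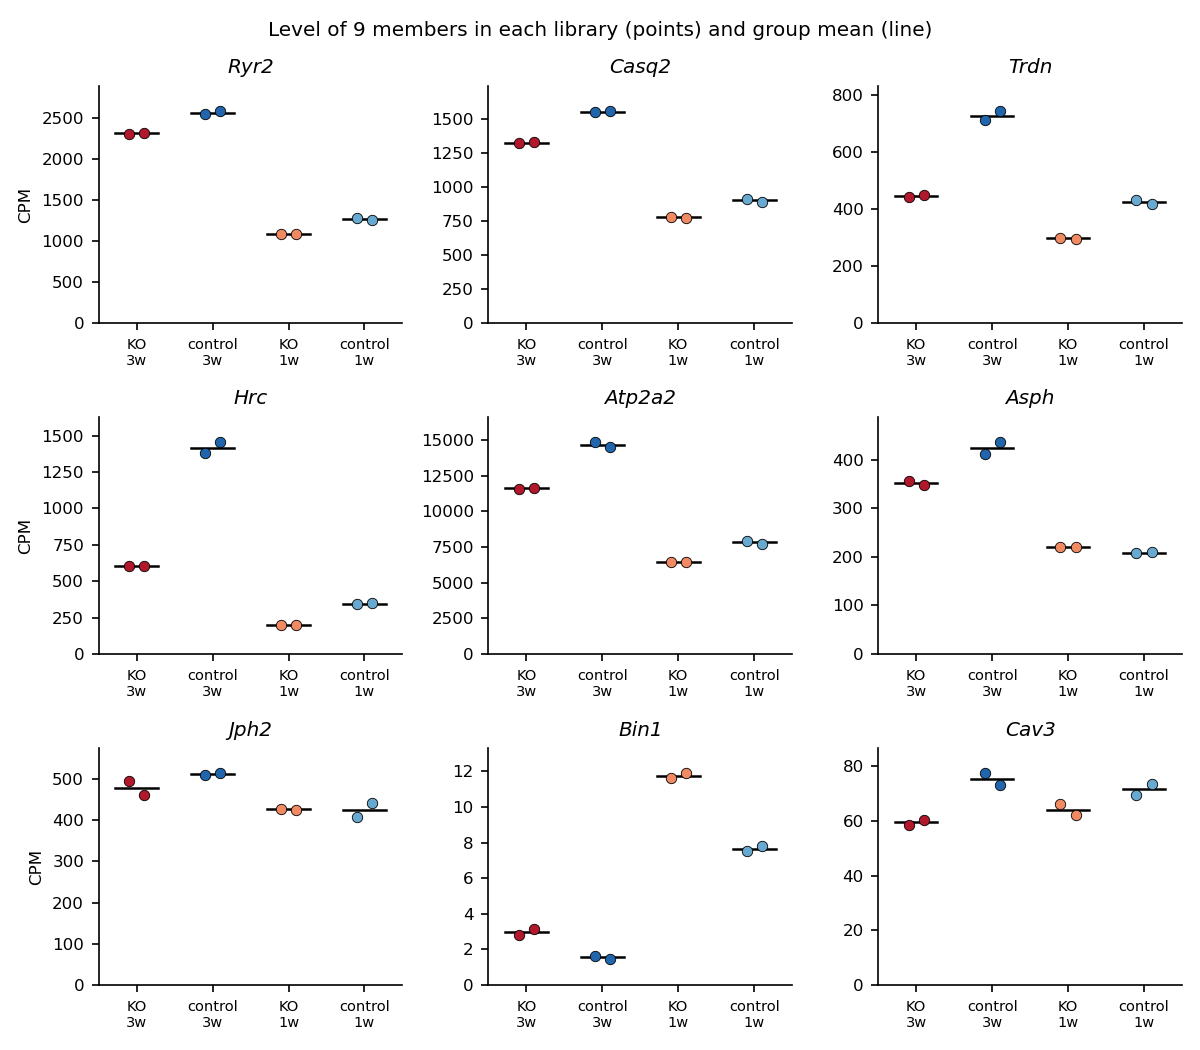
Level of the 9 members with counts, in CPM (vertical axes, from 0) for 3w KO, 3w control, 1w KO and 1w control; points are the 2 libraries of a group and lines their means. Hrc shows the widest gap between KO and control for its level, at 603 and 606 CPM in KO against 1381 and 1453 CPM in 3w control, while the points of Jph2 overlap at 1w.

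The release channel itself is Ryr2, the cardiac ryanodine receptor (chromosome 13, 11553102 to 12106945, minus strand, GRCm38/mm10). Ryr2 measured 2299 and 2321 CPM in 3w KO against 2541 and 2579 CPM in 3w control, and 1081 and 1091 CPM in 1w KO against 1283 and 1259 CPM in 1w control. At each age both KO libraries lay below both control libraries in these TMM-scaled levels. The Ryr2 counts were 65126 and 66611 of 30912152 and 31325805 in 3w KO, against 106641 and 73025 of 53671626 and 37293627 in 3w control. As a share of total counts Ryr2 was thus higher in 3w KO, so its order at 3w depends on the TMM factors. KO over control differed by -0.15 ± 0.025 (SE; adjusted p = 1.4e-06) at 3w and -0.23 ± 0.026 (adjusted p = 3.4e-11) at 1w, so KO held 90.2% of the control level at 3w and 85.4% at 1w. Over both ages it was -0.19 ± 0.042 (adjusted p = 0.0092), a call lost with a block by injection day (adjusted p = 0.066). Under structural scaling Ryr2 was instead higher in 3w KO, by 0.15 (adjusted p = 0.00037), remained lower at 1w, at -0.12 (adjusted p = 0.0058), and differed by 0.01 over both ages (adjusted p = 0.86).

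Inside the SR, calcium is held by calsequestrin and by the histidine-rich calcium binding protein. Casq2, cardiac calsequestrin (chromosome 3, 102086415 to 102146514, plus strand), measured 1323 and 1327 CPM in 3w KO against 1550 and 1554 CPM in 3w control, and 778 and 774 CPM in 1w KO against 914 and 890 CPM in 1w control. KO stood below control by about the same proportion at both ages, with no overlap. Its log2 fold change was -0.23 ± 0.027 (adjusted p = 6.5e-11) at 3w, -0.22 ± 0.027 (adjusted p = 5.3e-10) at 1w and -0.22 ± 0.039 (adjusted p = 0.0031) over both ages. Under structural scaling the sign turned at 3w (0.07, adjusted p = 0.11), the fall at 1w held (-0.11, adjusted p = 0.015) and no call was left over both ages (-0.02, adjusted p = 0.77).

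Hrc, whose protein binds calcium in the SR lumen and links to triadin and to the SR pump, had the largest fall of the members at both ages (chromosome 7, 45335290 to 45338974, plus strand). It measured 603 and 606 CPM in 3w KO against 1381 and 1453 CPM in 3w control, and 201.0 and 201.1 CPM in 1w KO against 346 and 347 CPM in 1w control. The KO libraries at 3w lay closer to the control libraries at 1w than to those at 3w. On the log2 scale KO differed from control by -1.23 ± 0.029 (adjusted p = 7.2e-43) at 3w, -0.79 ± 0.030 (adjusted p = 7.5e-32) at 1w and -1.01 ± 0.084 (adjusted p = 8e-05) over both ages. Only 1.40% of all tested genes had a lower value at 3w, 3.06% at 1w and 1.03% over both ages. Over all alternatives the fall ranged between -1.27 and -0.93 at 3w and between -0.81 and -0.68 at 1w, and the value nearest 0 was that of structural scaling at both ages. None of the exonic bases of Hrc lies inside the span of another annotated gene.

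Triadin and junctin anchor calsequestrin to the ryanodine receptor in the SR membrane. Trdn, which encodes triadin (chromosome 10, 33080554 to 33476709, plus strand), measured 443 and 450 CPM in 3w KO against 713 and 744 CPM in 3w control, and 299 and 296 CPM in 1w KO against 432 and 417 CPM in 1w control. The level in 3w KO was near that of 1w control. In log2 terms the difference was -0.71 ± 0.030 (adjusted p = 2e-29) at 3w, -0.51 ± 0.031 (adjusted p = 4.2e-22) at 1w and -0.61 ± 0.051 (adjusted p = 8.1e-05) over both ages. Under structural scaling it was -0.41 (adjusted p = 6.2e-14) at 3w and -0.40 (adjusted p = 2.1e-13) at 1w.

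Asph encodes junctin together with junctate and the aspartate beta-hydroxylase, which share parts of the locus, and a gene-level count does not separate these products. Asph (chromosome 4, 9448069 to 9669344, minus strand) measured 356 and 349 CPM in 3w KO against 412 and 436 CPM in 3w control, and 221 and 220.3 CPM in 1w KO against 208 and 209.5 CPM in 1w control. KO was therefore below control at 3w and slightly above control at 1w. The log2 fold change was -0.27 ± 0.032 (adjusted p = 1.5e-10) at 3w and 0.08 ± 0.033 (adjusted p = 0.041) at 1w. The call at 1w was lost in 11 of 16 alternatives, among them leaving out any 1 of the 8 libraries (0.06 to 0.09, adjusted p between 0.059 and 0.18). Over both ages Asph differed by -0.09 ± 0.069 (adjusted p = 0.34). Under structural scaling the value at 3w turned to 0.03 (adjusted p = 0.51), and that at 1w was 0.19 (adjusted p = 0.00025). Of the exonic bases of Asph 17.9% lie inside other genes, the most among the 9 members with counts. It shares 2302 exonic bases with Clvs1 on the opposite strand, which had 151 counts over the 8 libraries against 80520 for Asph. Whether counting used strand is not given in the sources used here.

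Atp2a2 encodes SERCA2, the pump that returns calcium to the SR (chromosome 5, 122453513 to 122502225, minus strand), and had the highest level of the members. It measured 11565 and 11666 CPM in 3w KO against 14845 and 14505 CPM in 3w control, and 6476 and 6480 CPM in 1w KO against 7914 and 7743 CPM in 1w control. The KO libraries lay below the control libraries at both ages, at 79.2% of the control mean at 3w and 82.7% at 1w. KO over control differed by -0.34 ± 0.022 (adjusted p = 1.6e-20) at 3w, -0.27 ± 0.022 (adjusted p = 2.6e-16) at 1w and -0.31 ± 0.042 (adjusted p = 0.00099) over both ages. Under structural scaling the call was lost at 3w (-0.04, adjusted p = 0.34) and over both ages (-0.10, adjusted p = 0.071), and held at 1w (-0.17, adjusted p = 2.4e-05).

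Pln encodes phospholamban, which inhibits SERCA2 until it is phosphorylated and is a major transcript of heart muscle. It was listed at 0 in all 8 libraries, so nothing can be said of its level, and the ratio of inhibitor to pump could not be formed. All 2759 exonic bases of Pln (chromosome 10, 53337667 to 53345987, plus strand) lie inside the span of Cep85l (53273443 to 53379947, minus strand), which had 9250 counts over the 8 libraries. In the whole table, 1337 of 1457 protein-coding genes whose exons lie wholly inside other genes were at 0 (91.8%). Of 14132 such genes with no exonic base inside another gene, 3467 were at 0 (24.5%). All 11 genes of the lists used here that were at 0 lay wholly inside another gene, Pln and Actc1 among them. Levels of wholly nested genes are therefore not read here, and how reads in shared spans were assigned was not tested.

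Jph2, Cav3 and Bin1 shape the T-tubule and its contact with the SR, and here the KO differences did not run one way. Jph2, junctophilin 2, spans the gap between the T-tubule and the SR (chromosome 2, 163336242 to 163397993, minus strand). It measured 496 and 460.4 CPM in 3w KO against 509 and 514 CPM in 3w control, and 428 and 425 CPM in 1w KO against 409 and 441.5 CPM in 1w control. The groups overlapped at 1w and lay close together at 3w. Its log2 fold change was -0.10 ± 0.034 (adjusted p = 0.015) at 3w, 0.00 ± 0.034 (adjusted p = 0.94) at 1w and -0.05 ± 0.048 (adjusted p = 0.5) over both ages. The call at 3w was lost with a stricter filter on low counts (-0.05, adjusted p = 0.23), without replicate 2 of 3w KO (-0.06, adjusted p = 0.29), without replicate 1 of 3w control (-0.11, adjusted p = 0.1) and without its replicate 2 (-0.12, adjusted p = 0.079). Under structural scaling Jph2 was higher in KO, by 0.20 at 3w (adjusted p = 3.1e-05), by 0.11 at 1w (adjusted p = 0.031) and by 0.16 over both ages (adjusted p = 0.028).

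Cav3, muscle caveolin (chromosome 6, 112459505 to 112472872, plus strand), measured 58.6 and 60.5 CPM in 3w KO against 77.4 and 73.2 CPM in 3w control, and 66.1 and 62.1 CPM in 1w KO against 69.7 and 73.4 CPM in 1w control. KO lay below control at both ages, with a narrow gap at 1w. On the log2 scale KO differed from control by -0.34 ± 0.044 (adjusted p = 1.6e-09) at 3w, -0.16 ± 0.043 (adjusted p = 0.0017) at 1w and -0.25 ± 0.053 (adjusted p = 0.0076) over both ages. A block by injection day left the value over both ages at the threshold, without a call (adjusted p = 0.05). The call at 1w was lost without replicate 2 of 1w KO (-0.11, adjusted p = 0.11) and without replicate 2 of 1w control (-0.12, adjusted p = 0.082). Under structural scaling no call was left: the values were -0.04 (adjusted p = 0.5) at 3w, -0.05 (adjusted p = 0.43) at 1w and -0.05 (adjusted p = 0.51) over both ages.

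Bin1, amphiphysin 2, bends membrane into tubules and is made in many cell types as well as in muscle (chromosome 18, 32377230 to 32435737, plus strand). It was the member with the lowest level, and the one called higher in KO at both ages. It measured 2.82 and 3.14 CPM in 3w KO against 1.64 and 1.48 CPM in 3w control, and 11.6 and 11.9 CPM in 1w KO against 7.51 and 7.79 CPM in 1w control. These rest on 80 and 90 counts in 3w KO, 69 and 42 in 3w control, 518 and 449 in 1w KO, and 179 and 285 in 1w control. Bin1 was higher in KO at both ages with no overlap. In log2 terms the difference was 0.92 ± 0.17 (adjusted p = 1e-05) at 3w, 0.62 ± 0.093 (adjusted p = 1.2e-07) at 1w and 0.73 ± 0.095 (adjusted p = 0.00069) over both ages. Structural scaling gave 1.21 (adjusted p = 9.8e-09) at 3w and 0.72 (adjusted p = 1.7e-09) at 1w. Bin1 moved in the direction of the summed markers of fibroblasts, macrophages, endothelium and smooth muscle given above, in KO and also between the ages for fibroblasts, endothelium and smooth muscle, and their part in it was not tested. The counts do not separate its muscle and other isoforms.

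**Figure D2:**
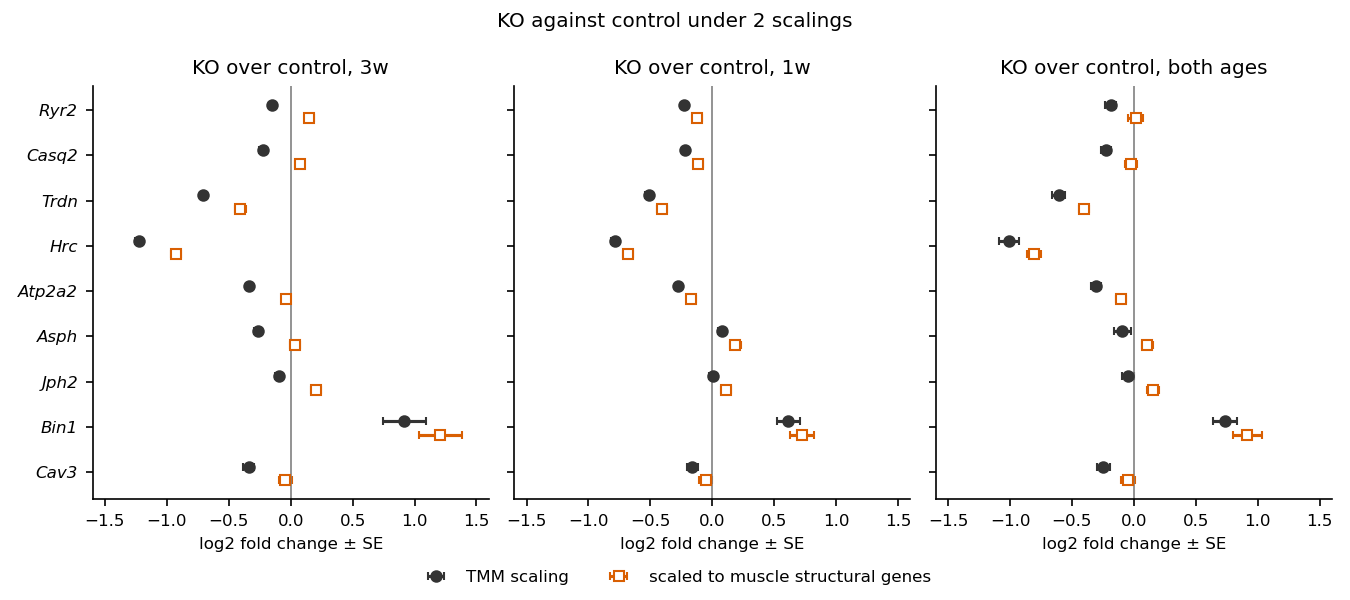
Log2 fold change of KO over control, with bars of 1 SE, for the 9 members (rows) at 3w, at 1w and over both ages; filled circles are TMM scaling and open squares structural scaling. Hrc (-1.23 and -0.93 at 3w under the 2 scalings), Trdn and Bin1 keep their side of 0, while Ryr2, Casq2, Asph and Jph2 change side at 3w.

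Per kilobase of exon the levels differed over several orders of magnitude. In 3w control they were 2413 CPM per kb for Atp2a2, 567 for Casq2, 552 for Hrc, 120.2 for Jph2, 88.9 for Ryr2, 77.9 for Trdn, 65.1 for Cav3, 26.3 for Asph and 0.380 for Bin1. Casq2 and Hrc were neighbours in this order, and with 538 and 566 CPM per kb in the control libraries the level of Hrc did not differ from that of Casq2 beyond its own spread. In 3w KO they stood apart, at 484 CPM per kb for Casq2 and 236 for Hrc. The lengths are those of all annotated exons joined, so a gene with many isoforms is placed lower than its main transcript would be.

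Ratios between members within 1 library do not depend on how libraries are scaled, and they are given as descriptions. Per kb, Hrc stood to Casq2 at 0.486 and 0.487 in 3w KO against 0.950 and 0.997 in 3w control, and at 0.276 and 0.277 in 1w KO against 0.404 and 0.416 in 1w control. The balance of the SR calcium binding transcripts thus lay further towards Casq2 in KO at both ages. Trdn to Casq2 was 0.0979 and 0.0992 in 3w KO against 0.135 and 0.140 in 3w control, and 0.113 and 0.112 in 1w KO against 0.138 and 0.137 in 1w control. In control this ratio was nearly the same at both ages. Asph to Trdn ran the other way, at 0.467 and 0.450 in 3w KO against 0.336 and 0.340 in 3w control, and at 0.429 and 0.432 in 1w KO against 0.280 and 0.292 in 1w control. Casq2 to Ryr2 was 6.06 and 6.02 in 3w KO against 6.42 and 6.34 in 3w control, and 7.57 and 7.47 in 1w KO against 7.50 and 7.44 in 1w control, where the groups overlapped. Jph2 to Ryr2 was 1.46 and 1.34 in 3w KO against 1.36 and 1.35 in 3w control, which overlap, and 2.68 and 2.63 in 1w KO against 2.16 and 2.37 in 1w control. Bin1 to Cav3 was 0.0135 and 0.0146 in 3w KO against 0.00597 and 0.00570 in 3w control, and 0.0494 and 0.0538 in 1w KO against 0.0303 and 0.0298 in 1w control.

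**Figure D3:**
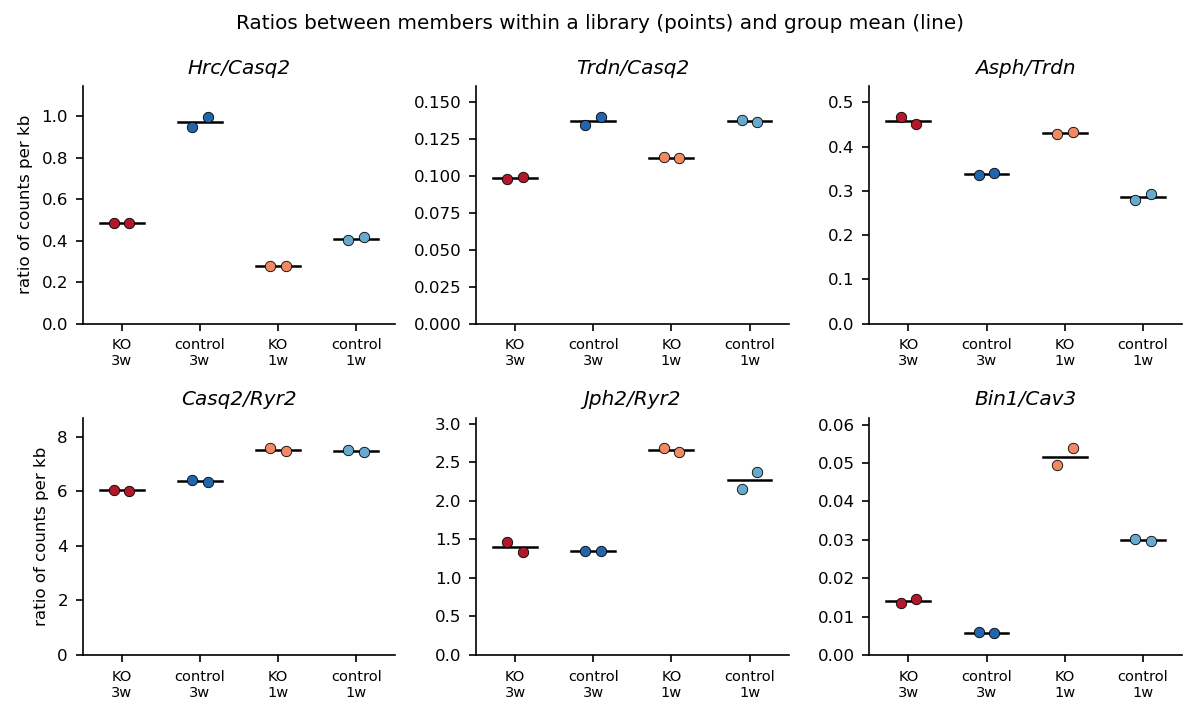
Ratio of counts per kb of exon between pairs of members (vertical axes, from 0) for 3w KO, 3w control, 1w KO and 1w control; points are libraries and lines group means. Hrc/Casq2 and Trdn/Casq2 are lower and Asph/Trdn is higher in KO at both ages, with no overlap between KO and control libraries of an age.

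Between 1w and 3w most members of the SR machinery were higher at 3w in both arms. In KO, 7 members were higher at 3w (33.2% of all genes) and Bin1 and Cav3 lower (34.6% of all genes, and 67.9% in either direction). In control, 7 were higher (34.9% of all genes), Bin1 was lower (36% of all genes, and 70.8% in either direction) and Cav3 was not called. Hrc differed most, by 1.59 ± 0.030 on the log2 scale in KO (adjusted p = 3.4e-49) and 2.03 ± 0.030 in control (adjusted p = 3.4e-55). The increase of Ryr2 was 1.09 ± 0.026 in KO and 1.01 ± 0.026 in control. That of Casq2 was 0.77 ± 0.027 in KO and 0.78 ± 0.027 in control, and that of Atp2a2 0.84 ± 0.022 in KO and 0.91 ± 0.022 in control. Trdn differed by 0.58 ± 0.031 in KO and 0.78 ± 0.030 in control, and Asph by 0.68 ± 0.032 in KO and 1.02 ± 0.033 in control. Jph2 was 0.17 ± 0.034 higher in KO (adjusted p = 3e-05) and 0.27 ± 0.034 higher in control (adjusted p = 2.3e-09). Bin1 was lower at 3w, at -1.98 ± 0.11 in KO and -2.28 ± 0.14 in control.

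Structural genes were themselves a larger share of total counts at 3w, at 6.83 and 6.74% against 5.56 and 5.51% at 1w in KO. In control the shares were 6.97 and 7.08% at 3w and 5.47 and 5.63% at 1w. Structural scaling also replaces the TMM factors, which were lower at 3w than at 1w in both arms. Together these moved the median of all genes by -0.721 in KO and -0.910 in control. Relative to the structural genes Hrc was still higher at 3w, by 0.87 in KO and 1.11 in control, as was Ryr2, by 0.37 in KO and 0.09 in control. The sign turned for Trdn (-0.14 in KO and -0.14 in control) and Jph2 (-0.56 in KO and -0.65 in control), for Asph in KO (-0.05), and for Casq2 (-0.13), Atp2a2 (-0.01) and Cav3 (-0.84) in control. In KO, Casq2 kept its sign without a call (0.05, adjusted p = 0.22), and Cav3, already lower at 3w, stood at -0.83 (adjusted p = 7.3e-25). Cav3 was nearly level under TMM scaling, at -0.11 ± 0.044 in KO (adjusted p = 0.029) and 0.07 ± 0.043 in control (adjusted p = 0.13). Its call in KO was lost without either KO library at 3w (-0.06 without replicate 1 and -0.11 without replicate 2), either control library at 3w (-0.09 each) or replicate 1 of 1w KO (-0.06), with DESeq2 (-0.10) or its size factors (-0.10) and with a block by injection day (-0.10, adjusted p = 0.091), and a call in control appeared without replicate 2 of 3w control (0.14) or of 1w control (0.12). Y-linked transcripts also differed between the ages in each arm, in opposite directions, so that either age difference cannot be told apart from them. The listed day of injection differed between the ages too, at day 3 or 4 for 3w and day 1 or 2 for 1w. Age, day of injection and time since injection therefore cannot be told apart.

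The KO effect at 3w less that at 1w was called lower for 4 members, against 17.9% of all genes, and higher for 0, against 17.6%, with 35.6% of all genes called in either direction. It was -0.44 ± 0.042 for Hrc (adjusted p = 9.9e-14), -0.35 ± 0.046 for Asph (adjusted p = 5e-09), -0.20 ± 0.043 for Trdn (adjusted p = 0.00018) and -0.18 ± 0.062 for Cav3 (adjusted p = 0.017). The values for the other members were 0.08 ± 0.036 for Ryr2, -0.01 ± 0.038 for Casq2, -0.06 ± 0.032 for Atp2a2, -0.10 ± 0.048 for Jph2 and 0.30 ± 0.20 for Bin1, with adjusted p between 0.083 and 0.86. Under structural scaling the difference held for Hrc (-0.25, adjusted p = 0.00033) and Asph (-0.15, adjusted p = 0.039), was gone for Trdn (-0.00, adjusted p = 0.99) and turned for Cav3 (0.01, adjusted p = 0.92). The same scaling gave 4 calls in the higher direction, for Ryr2 (0.27, adjusted p = 1.6e-05), Casq2 (0.18, adjusted p = 0.0053), Atp2a2 (0.13, adjusted p = 0.024) and Bin1 (0.49, adjusted p = 0.049), where 38.3% of all genes were called in either direction. The Cav3 call was also lost without replicate 1 of 3w KO (-0.15), of 3w control (-0.12), of 1w KO (-0.14) or of 1w control (-0.15), and with DESeq2 (-0.18, adjusted p = 0.11). A call appeared for Ryr2 with a stricter filter on low counts (0.09), for Atp2a2 and Jph2 with no filter (-0.10 for Atp2a2 and -0.14 for Jph2), for Atp2a2 without replicate 2 of 3w control (-0.09) or replicate 1 of 1w control (-0.08), and for Jph2 without replicate 1 of 3w KO (-0.15) or replicate 2 of 1w control (-0.16). In CPM under TMM scaling, the gain of Hrc between 1w and 3w in KO came to 37.7% of the gain in control, that of Trdn to 48.8%, of Asph to 61.2%, of Atp2a2 to 75.0%, of Casq2 to 84.5% and of Ryr2 to 94.9%. These percentages also carry the level at 1w, from which each arm starts. On the log2 scale the difference of KO effects was not called for Atp2a2 (-0.06), Casq2 (-0.01) or Ryr2 (0.08), so no smaller fold gain in KO is read for them.

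**Figure D4:**
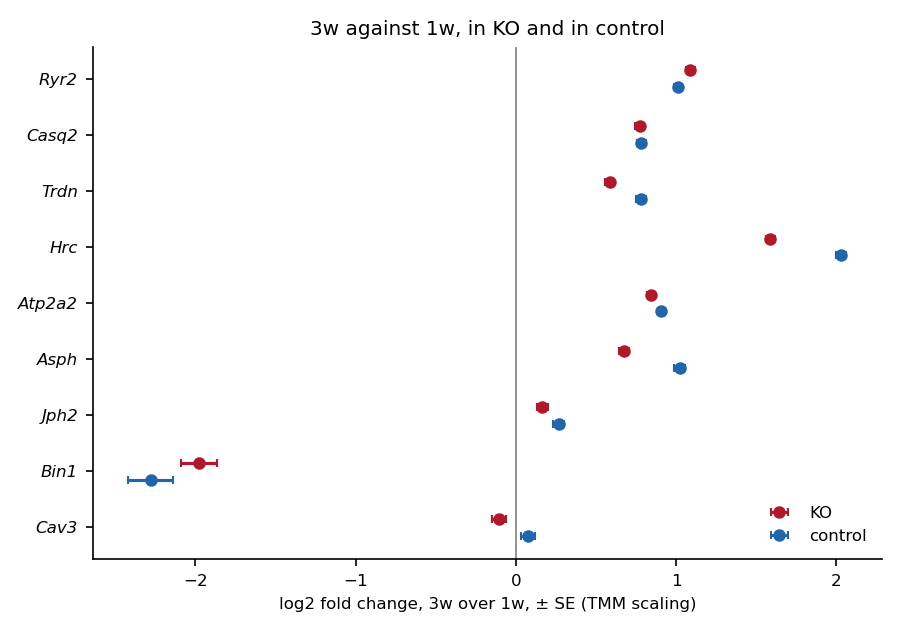
Log2 fold change of 3w over 1w with bars of 1 SE for the 9 members (rows), in KO and in control, under TMM scaling. Hrc is farthest to the right (1.59 in KO and 2.03 in control) and Bin1 farthest to the left (-1.98 in KO and -2.28 in control); under structural scaling Trdn, Jph2 and Cav3 lie left of 0 in both arms, Asph does so in KO, and Casq2 and Atp2a2 do so in control.

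Around these members, 79 genes of cardiac calcium handling were followed in 5 lists, of which 77 were matched and 70 tested. At 3w, 31 of the 70 were lower in KO and 21 higher, with a median log2 fold change of -0.05 against 0.01 over all genes. At 1w, 23 were lower and 24 higher, with a median of 0.08 against 0.02. Over both ages, 16 were lower and 14 higher, with a median of 0.01 for the lists and 0.01 for all genes. The shares of all genes called, against which these counts and those of each list below are to be read, were 24.8% lower and 24.4% higher at 3w, 20% lower and 23% higher at 1w, and 14.5% lower and 16.3% higher over both ages. The list counts below are under TMM scaling, and structural scaling moves each value of KO over control upward by about the shift stated above.

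Among 11 tested SERCA pumps and regulators, KO was lower for 9 and higher for 2 at 3w, lower for 6 and higher for 2 at 1w, and lower for 6 and higher for 2 over both ages. The 4 named by rule were lower at both ages. Camk2d, which encodes another kinase of phospholamban and stands in the list of channel partners, was called higher at 3w (0.10 ± 0.034, adjusted p = 0.015) and lower at 1w (-0.51 ± 0.034, adjusted p = 4.4e-20); it was named after its values were seen. Akap7, an anchor that brings protein kinase A to phospholamban, differed by -0.52 ± 0.066 at 3w and -0.48 ± 0.070 at 1w. Ppp1r3a, a targeting subunit of protein phosphatase 1, differed by -0.65 ± 0.035 at 3w and -0.12 ± 0.041 at 1w. Ppp1cb, a catalytic subunit of that phosphatase, differed by -0.24 ± 0.033 at 3w and -0.26 ± 0.033 at 1w, and Prkaca, the catalytic subunit of protein kinase A, by -0.26 ± 0.032 at 3w and -0.18 ± 0.032 at 1w. Of the exonic bases of Ppp1cb 26.9% lie inside other genes. Over both ages the adjusted p was 0.00044 for Akap7, 0.018 for Ppp1r3a, 0.002 for Ppp1cb and 0.0038 for Prkaca. Under structural scaling the call of Akap7 held (-0.30, adjusted p = 0.008) and those of the other 3 were lost, with Ppp1r3a at -0.19 (adjusted p = 0.065), Ppp1cb at -0.05 (adjusted p = 0.52) and Prkaca at -0.01 (adjusted p = 0.83). The call of Ppp1r3a was also lost with a block by injection day (adjusted p = 0.07) and with no filter on low counts (adjusted p = 0.071).

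The 2 genes higher over both ages in this list, named after their values were seen, were the pumps Atp2a1, known from fast skeletal muscle, and Atp2a3, known from non-muscle cells. Atp2a1 averaged 5.96 ± 0.35 CPM in 3w KO and 0.379 ± 0.064 CPM in 3w control, and 0.287 ± 0.070 CPM in 1w KO and 0.152 ± 0.022 CPM in 1w control (SD, n = 2 each). The difference was 4.00 ± 0.23 on the log2 scale at 3w (adjusted p = 5e-23) but 0.95 ± 0.53 at 1w (adjusted p = 0.14). Of the exonic bases of Atp2a1 43.9% lie inside Rabep2, and it had 399 counts over the 8 libraries. The skeletal muscle markers Tnnt3 and Mylpf also differed, by 3.82 and 3.22 at 3w and by 1.39 and 0.87 at 1w, and the median of the 4 skeletal markers tested was 1.93 at 3w and 0.84 at 1w. Their part in the values of Atp2a1, and in those of Casq1 and Ryr1 below, was not tested. Even in 3w KO the level of Atp2a1 was a small fraction of the CPM of Atp2a2. Atp2a3 averaged 5.998 ± 0.25 CPM in 3w KO and 2.08 ± 0.15 CPM in 3w control, and 9.29 ± 1.5 CPM in 1w KO and 5.19 ± 0.34 CPM in 1w control. The pump inhibitor Sln, sarcolipin, also named after its values were seen, is mainly atrial. It averaged 0.334 ± 0.18 CPM in 3w KO and 5.19 ± 0.044 CPM in 3w control, and 16.1 ± 0.85 CPM in 1w KO and 0.690 ± 0.14 CPM in 1w control. Summed atrial markers, which include Sln, lay between 602 and 616 CPM in 3w KO and 177 and 184 CPM in 3w control, and between 646 and 651 CPM in 1w KO and 71.0 and 74.1 CPM in 1w control. Their sum was higher in KO at both ages, but of the 8 atrial markers 3 were higher and 5 lower in KO at 3w, Sln among the lower ones (median log2 fold change -1.24), while 8 were higher at 1w (median 2.89). Over both ages 3 were called higher and 5 not called. Nppa had the most counts of this list over the 8 libraries, 58108, followed by Bmp10 with 16216, and so weighs most in the sum. Of the exonic bases of Nppa 69.25% lie inside another gene. None of the 8 atrial markers was at 0 in every library, and the part of atrial cells in these values was not tested.

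Of 10 other SR luminal proteins, KO was lower for 4 and higher for 2 at 3w, lower for 1 and higher for 5 at 1w, and lower for 1 and higher for 2 over both ages. Casq1, the skeletal muscle calsequestrin, rose by 0.21 ± 0.050 at 3w and 0.60 ± 0.076 at 1w (adjusted p = 0.0064 over both ages), the opposite direction to Casq2. Its level was 58.4 ± 4.9 CPM in 3w KO against 50.4 ± 0.48 CPM in 3w control, and 16.1 ± 0.080 CPM in 1w KO against 10.6 ± 0.078 CPM in 1w control. Selenon, an SR selenoprotein, rose by 0.30 ± 0.059 at 3w and 0.22 ± 0.051 at 1w (adjusted p = 0.003 over both ages). Canx, the chaperone calnexin, differed by -0.17 ± 0.033 at 3w and -0.11 ± 0.034 at 1w (adjusted p = 0.028 over both ages), and by 0.06 over both ages under structural scaling. The call of Canx was lost without replicate 1 of 3w KO, replicate 1 or 2 of 1w KO or replicate 1 of 1w control (-0.15 to -0.14), with another filter on low counts (-0.13 with none and -0.10 with a stricter one), and with a replicate block (adjusted p = 0.054 by number and 0.098 by injection day).

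Of 16 tested genes of T-tubule and dyad structure, KO was lower for 8 and higher for 4 at 3w, lower for 7 and higher for 5 at 1w, and lower for 6 and higher for 3 over both ages. Tcap, telethonin, a Z-disc protein also linked to T-tubule stability, averaged 464.5 ± 19 CPM in 3w KO and 1097 ± 32 CPM in 3w control, and 97.3 ± 0.79 CPM in 1w KO and 107.9 ± 8.3 CPM in 1w control. The log2 fold change was -1.24 ± 0.037 at 3w and -0.15 ± 0.041 at 1w. Over both ages it was -0.70 ± 0.21 (adjusted p = 0.046), a call lost without any library of 3w KO or 3w control (-0.64 to -0.57) and without replicate 2 of 1w KO (-0.79) or 1w control (-0.81). It was also lost with no filter on low counts (adjusted p = 0.16) and with a replicate block (adjusted p = 0.061 by number and 0.089 by injection day). Mtm1, the lipid phosphatase myotubularin, which like Bin1 is mutated in centronuclear myopathy, changed by -0.69 ± 0.074 at 3w and -0.40 ± 0.081 at 1w (adjusted p = 0.0012 over both ages). Nexn, nexilin, a component of the junctional membrane complex, changed by -0.46 ± 0.031 at 3w and -0.40 ± 0.031 at 1w (adjusted p = 0.00021 over both ages). Cmya5, which lies at the dyad next to the Z-disc, changed by -0.50 ± 0.031 at 3w and -0.13 ± 0.033 at 1w (adjusted p = 0.011 over both ages, and 0.059 with a block by injection day). Of the exonic bases of Cmya5 31.4% lie inside other genes. Structural scaling left Mtm1 at -0.35 (adjusted p = 0.0069) and Nexn at -0.23 (adjusted p = 0.006), and Cmya5 at -0.12 without a call (adjusted p = 0.12).

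Of 17 partners and relatives of the release channel, KO was lower for 6 and higher for 7 at 3w, lower for 3 and higher for 8 at 1w, and lower for 1 and higher for 5 over both ages. The 3 genes of the inositol trisphosphate receptor, another class of release channel, differed in when they were called. Itpr1 differed by 0.46 ± 0.061 at 3w and 0.12 ± 0.052 at 1w (adjusted p = 0.056), and Itpr2 by 0.13 ± 0.077 at 3w (adjusted p = 0.17) and 0.26 ± 0.063 at 1w. Itpr3, named after its values were seen, differed by 0.00 ± 0.13 at 3w (adjusted p = 0.99) and 0.50 ± 0.10 at 1w. Over both ages the adjusted p was 0.014 for Itpr1, 0.022 for Itpr2 and 0.12 for Itpr3, and a block by injection day ended both calls (adjusted p = 0.065 for Itpr1 and 0.078 for Itpr2). The call of Itpr1 was lost without any 1 of the 4 libraries at 3w (0.22 to 0.25), and that of Itpr2 without replicate 1 of 3w KO, replicate 2 of 3w control or any 1 of the 4 libraries at 1w (0.17 to 0.20). Sri, sorcin, a calcium binding regulator of the ryanodine receptor, differed by -0.19 ± 0.071 at 3w and -0.17 ± 0.055 at 1w (adjusted p = 0.022 over both ages), and by 0.01 over both ages under structural scaling. The Sri call was lost without replicate 2 of 1w KO (-0.17) or replicate 1 of 1w control (-0.17), and with a block by injection day (adjusted p = 0.058). The skeletal muscle ryanodine receptor Ryr1, named after its values were seen, averaged 0.561 ± 0.0050 CPM in 3w KO, 0.0238 ± 0.034 CPM in 3w control, 0.0734 ± 0.0085 CPM in 1w KO and 0.0620 ± 0.028 CPM in 1w control. These rest on a total of 44 counts over the 8 libraries.

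Of 16 tested genes of calcium and sodium transport at the cell membrane, KO was lower for 4 and higher for 6 at 3w, lower for 6 and higher for 4 at 1w, and lower for 2 and higher for 2 over both ages. The genes of the L-type calcium channel, whose current triggers Ryr2, did not run one way. Cacna1c, its pore, averaged 245 ± 0.29 CPM in 3w KO and 339 ± 8.2 CPM in 3w control, and 190 ± 2.1 CPM in 1w KO and 252 ± 2.1 CPM in 1w control. It changed by -0.47 ± 0.032 at 3w and -0.40 ± 0.032 at 1w (adjusted p = 0.00011 over both ages), and by -0.23 over both ages under structural scaling (adjusted p = 0.0069). Cacna2d1, its auxiliary alpha-2-delta subunit, differed by -0.36 ± 0.033 at 3w and -0.24 ± 0.036 at 1w (adjusted p = 0.00097 over both ages), a call lost under structural scaling (-0.10, adjusted p = 0.11). Cacnb2, a beta subunit, averaged 59.4 ± 1.6 CPM in 3w KO and 55.4 ± 3.2 CPM in 3w control (log2 fold change 0.10, adjusted p = 0.076), and 43.6 ± 0.015 CPM in 1w KO and 83.6 ± 1.7 CPM in 1w control (-0.94, adjusted p = 2.5e-27). Cacna1d, another pore, which like Cacnb2 was named after its values were seen, differed by -0.05 at 3w (adjusted p = 0.86) and by 0.64 at 1w (adjusted p = 5.3e-05). Atp2b4, a calcium pump of the plasma membrane, differed by 0.63 ± 0.080 at 3w and 0.09 ± 0.057 at 1w (adjusted p = 0.032 over both ages), a call lost without any 1 of the 4 libraries at 3w (0.26 to 0.29) and with a replicate block (adjusted p = 0.057 by number and 0.1 by injection day).

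**Figure D5:**
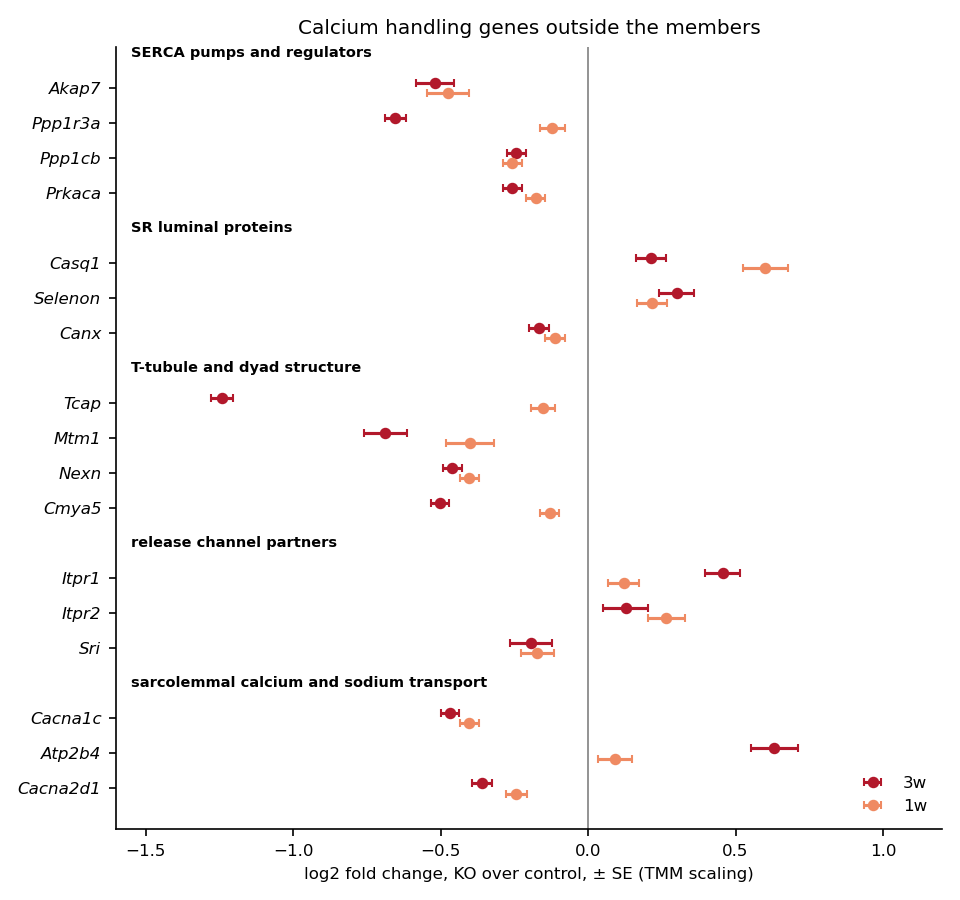
Log2 fold change of KO over control, with bars of 1 SE, at 3w and at 1w under TMM scaling, for 17 calcium handling genes in 5 lists (rows). Tcap is farthest to the left at 3w (-1.24) and stands at -0.15 at 1w, while Akap7, Nexn and Cacna1c differ by similar amounts at both ages; Canx and Sri turn sign over both ages under structural scaling.

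The genes whose log2 CPM followed each member most closely over the 8 libraries, among 6846 genes with a mean of at least 10 CPM, are given as a description. The 8 points fall into 4 groups and share library and depth, so high values of Pearson's r are common. Hrc ran closest with Pccb, a subunit of propionyl-CoA carboxylase (r = 0.9995), and Uqcrc2, a core subunit of respiratory complex III (r = 0.9991). Trdn ran closest with Etfdh (r = 0.9988) and Acat1 (r = 0.9977), both mitochondrial enzymes. Ryr2 ran with Igsf1 (r = 0.9997) and Asb15 (r = 0.9995), Casq2 with Zyg11b (r = 0.9996) and Tcp11l2 (r = 0.9995), and Atp2a2 with Ank3 (r = 0.9992) and Gm15943 (r = 0.9991). Asph ran with Myh6, the alpha heavy chain of cardiac myosin (r = 0.9996), and Egln1 (r = 0.9989). Bin1 ran with Cfl1, cofilin (r = 0.9986), and Lamc1, a laminin chain (r = 0.9982). Jph2 (Apoo-ps at 0.9914 and Thap11 at 0.9891) and Cav3 (Rere at 0.9705 and Fam76a at 0.9701) had the least close neighbours.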

How the data were processed

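The authors deposited 1 table of gene-level counts for 8 libraries. Per the submitters' processing notes, they used FastQC, MultiQC, HISAT2 with mm10, featureCounts and DESeq2. Per the labels' protocols, libraries were made with SMART and Nextera XT kits. The strand setting, annotation and each version: not given in the sources used here. GENCODE M21 named 54723 of the 54752 IDs.

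From these counts, edgeR's filterByExpr (minimum count 10, minimum total 15) kept 14665 genes. TMM factors, the trimmed mean of M-values, lay between 0.759 and 1.23 and enter all CPM. Tests are edgeR's quasi-likelihood F-test with robust fitting over the 4 groups (4 residual degrees of freedom, common coefficient of variation 3.03%). A model with additive terms for age and KO served the comparison over both ages. Adjustment was by Benjamini-Hochberg across every gene of a comparison, with calls at 0.05. SE were derived from F. Levels per kb use joined exons.

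The members and gene lists were chosen with earlier results of these data known. The lists hold 79 genes, 2 of which were not matched. Genes outside the members are named by rule: up to 4 called genes per list with the largest change over both ages and a mean of at least 10 CPM, and the 2 closest neighbours of each member. A gene that this rule names is not reported here. There were 17 alternatives: other scalings, filters, blocks, DESeq2, another design and leaving out each library. The procedure was also tested on simulated counts. The software was R 4.3.3, edgeR 4.0.16, limma 3.58.1 and DESeq2 1.42.0.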

Additional observations from a re-analysis of the deposited data

Results flagged for a closer look

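For 11 of the members and the genes named by rule, the KO effect at 3w and that at 1w differed in edgeR's quasi-likelihood test of the difference itself (35.6% of all genes were called in either direction). The values are log2 fold changes at 3w less those at 1w. The members were Hrc (-0.44), Asph (-0.35), Trdn (-0.20) and Cav3 (-0.18). The other genes were Tcap (-1.09), Ppp1r3a (-0.53), Casq1 (-0.39), Cmya5 (-0.37), Mtm1 (-0.29), Itpr1 (0.34) and Atp2b4 (0.54). Of the list genes named after their values were seen, Atp2a1 (3.04), Atp2a3 (0.70), Sln (-8.44), Ryr1 (4.00), Itpr3 (-0.50), Camk2d (0.61), Cacnb2 (1.03) and Cacna1d (-0.68) were called too. Over the 8 libraries Ryr1 had only 44 counts and Atp2a1 399, so the sizes of their differences are poorly determined. Each difference cannot be told apart from one that follows the Y-linked transcripts, which were present in control at 3w and KO at 1w and nearly absent from KO at 3w and control at 1w. Nor can it be told apart from one that follows the day of injection or the time since injection, which differed between the ages.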

How the results depend on the processing

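Under 17 alternatives the directions given for Hrc, Trdn and Bin1 in KO against control held. Structural scaling turned the following log2 fold changes: at 3w Ryr2 (0.15), Casq2 (0.0715), Asph (0.0338) and Jph2 (0.20); over both ages Ryr2 (0.0146), Asph (0.11), Jph2 (0.16), Canx (0.06) and Sri (0.01); 3w against 1w in KO Trdn (-0.14), Asph (-0.0466) and Jph2 (-0.56); 3w against 1w in control Casq2 (-0.13), Trdn (-0.14), Atp2a2 (-0.0096), Jph2 (-0.65) and Cav3 (-0.84); and the KO effect at 3w less that at 1w for Casq2 (0.18), Atp2a2 (0.13), Jph2 (0.0931) and Cav3 (0.0114). It changed the members called to 5 (from 9) at 3w and 4 (from 7) over both ages, and the share of calls that were higher to 87.8% from 49.6% at 3w, 75.2% from 53.5% at 1w, 90.2% from 52.9% over both ages, 8.61% from 49.0% for age in KO, 8.17% from 49.2% for age in control and 79.1% from 49.6% for the difference of KO effects. Jph2 at 1w, near 0, was -0.0046 with DESeq2 size factors, -0.0048 with DESeq2 and -0.0523 to 0.063 when leaving out 1 library each. Cav3 in control for age was -0.0166 with a stricter filter, and Casq2 for the difference of KO effects ran between -0.0312 and 0.0026 when leaving out 1 library each.

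DESeq2 called 4043 genes at 1w (6305 with edgeR) and 3351 for the difference of KO effects (5215). Over both ages, where the additive fit called 4505 genes and 30 of the pathway genes, the mean of the 2 KO contrasts called 7747 and 52, and leaving out 1 library each called 19 to 26 pathway genes. Same-numbered libraries deviated from their group means with r between -0.022 and 0.008 over the tested genes. That shows no shift shared across genes, but it cannot exclude that the numbers pair the libraries. A replicate block by number left 7 members called over both ages and lost the call of Asph at 1w. A replicate block by injection day left 2371 genes, 13 pathway genes and 5 members called over both ages, where Ryr2 (adjusted p = 0.066) and Cav3 (adjusted p = 0.05) lost their calls. The causes of these changes were not tested. Among the members with counts, Bin1 (42 to 518 counts) is limited most by depth.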
